A study of Mus musculus with 12 samples.

Results

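Small RNA of mouse sperm was compared between males heterozygous for Atf7 and wild-type males, all fed the control diet. The comparison used 6 of the series' 12 samples, 3 heterozygous (ATF7+/-) and 3 wild-type, chosen by their labelled genotype and diet, and all 2971 sequences of the deposited tRNA fragment table. The other 6 samples, wild-type and heterozygous males on low protein diet, share the estimate of the spread in every edgeR fit unless a fit is said to use 6 libraries, and their levels are given only where named. Every male had received its diet from week 3 to week 12 of age. The material was histone replacement-completed sperm, freed from the caudal epididymis and vas deferens, mildly sonicated and collected through 82% Percoll. The nature of the Atf7 allele, the strain, and whether a library is 1 male or a pool were not given in the sources used here, so p-values measure only the spread between these samples. The table holds tRNA fragments only. Atf7 itself and the marker genes of sperm or of other epididymal cells therefore could not be looked up in it, and the genotype labels and the purity of the sperm were not checked.

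Atf7 encodes a transcription factor of the ATF/CREB family that is phosphorylated by stress-activated kinases and helps to keep target genes silent through histone methylation. Fragments from the 5′ end of tRNAs, cut in or before the anticodon loop, are among the most abundant small RNAs of mature sperm, and part of them is acquired during passage through the epididymis. Paternal diet is known to alter their levels. The comparison answers whether the fragments of males on an ordinary diet differ with Atf7 dose, which is also the baseline against which a diet response in heterozygotes is read.

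The sequences below carry the comparison, and capitals mark each base that was substituted or added relative to the reference of its tRNA family, a sequence of the table that stands for that tRNA, while a missing base leaves no mark. The first is the most abundant fragment of the Gly-GCC family. Next come a pair of Gly-GCC variants that share 1 changed base, the Lys-CTT fragment of 31 nt with a fragment of the same length that the grouping placed in its family, but whose bases are known from lysine tRNAs with the TTT anticodon, and the sequence with the lowest p-value. The last is the His-GTG fragment that passed in 1 of 2 tests that took same-numbered libraries as pairs, a pairing the labels do not give.
Gly-GCC, 28 nt: gcattggtggttcagtggtagaattctc
Gly-GCC variant, 28 nt: gcattggtggttcagtggtagaattcGc
Gly-GCC double variant, 28 nt: gcattTgtggttcagtggtagaattcGc
Lys-CTT, 31 nt: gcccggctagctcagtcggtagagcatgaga
lysine, TTT type, 31 nt: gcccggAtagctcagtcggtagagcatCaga
family beginning GGCTCGTT, 28 nt: ggctcgttggtctaggggtatgattctT
His-GTG variant, 34 nt: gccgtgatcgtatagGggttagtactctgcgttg

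Library totals were 2365173 to 3927919 reads in wild type and 2198744 to 5581994 reads in heterozygotes, so depth overlapped between the genotypes. Levels are in RPM, the reads scaled to a common size by those totals. Adjusted p-values are Benjamini-Hochberg values from edgeR's quasi-likelihood test unless another tool is named, and log2 fold changes are heterozygous minus wild type. Between replicate libraries of a genotype the counts varied 27.7 to 177 times more than counting alone would give. The first principal component of log2(RPM + 1) took 60.2% of the variance and placed replicate 3 of both genotypes apart, at -29.0 in wild type and -33.3 in heterozygotes, with the other 4 libraries at 4.44 to 30.5. Replicate number took 66.0% of the variance between the 6 libraries and genotype 10.8%. Replicate number has more levels than genotype, so it would take a larger share by chance alone. The labels do not say what the replicate number stands for.

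**Figure D1:**
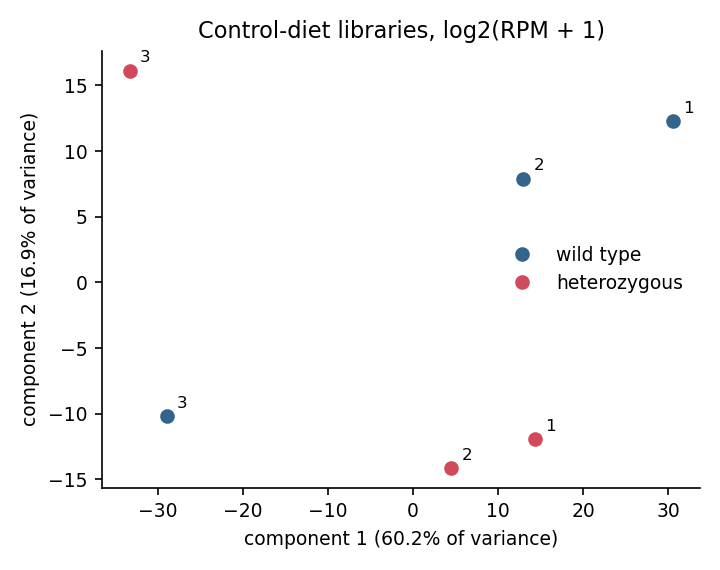
First and second principal components of log2(RPM + 1) over 2971 sequences, with 1 point per control-diet library, coloured by genotype and marked with its replicate number. The replicate 3 libraries of both genotypes lie at the left, and the first component takes 60.2% of the variance.

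No tRNA family differed between the genotypes by more than the replicate spread allowed to call. Glu-CTC, a glutamate family, was at 458127, 422140 and 460903 RPM in wild type and at 450973, 490583 and 368807 RPM in heterozygotes. The highest and the lowest of these 6 values were both heterozygous. The log2 fold change was −0.034, with a 95% interval of −0.30 to 0.24. Gly-GCC, a glycine family whose fragments are known to respond to paternal diet, was at 346996, 405394 and 385155 RPM in wild type and at 354527, 346741 and 500978 RPM in heterozygotes. Heterozygous replicate 3 alone stood above the wild-type range, and the log2 fold change was 0.080 (interval −0.23 to 0.39). The same library had the lowest Glu-CTC level, so that its ratio of Gly-GCC to Glu-CTC reads was 1.36 against 0.707 to 0.960 in the other 5 libraries.

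Of the next families, His-GTG was at 54415 ± 13240 RPM in wild type, against 46395 ± 14344 RPM in heterozygotes (mean ± SD, n = 3), a log2 fold change of −0.23 (−0.75 to 0.29). Glu-TTC was at 45359, 45225 and 29301 RPM in wild type and at 47992, 46180 and 29370 RPM in heterozygotes, nearly the same 3 values by replicate number (0.043, −0.37 to 0.46). Lys-CTT differed by −0.033 (−0.36 to 0.30) and Val-CAC by −0.068 (−0.46 to 0.33). In edgeR 0 of 19 families passed an adjusted p of 0.05 (0% called), the lowest adjusted p was 0.571, and 0 families had an unadjusted p under 0.05. DESeq2 and limma called 0 as well, with 1 and 0 families at an unadjusted p under 0.05. Heterozygous libraries lay all above wild type in 0 families (0%) and all below in 1 (5.26%).

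That family begins GCCCGGAT, goes on unlike the lysine fragment above, and has 7 sequences known from the start of the selenocysteine tRNA. It was at 291, 335 and 361 RPM in wild type and at 273, 237 and 286 RPM in heterozygotes (log2 fold change −0.31, −0.75 to 0.13), with an exact permutation p at the floor for 3 against 3 libraries, 0.1. The family that begins GGCTCGTT, known as the start of proline tRNAs, was at 2681, 3156 and 3572 RPM in wild type and at 2714, 2744 and 1892 RPM in heterozygotes (−0.36, −0.75 to 0.03). The lowest wild-type library lay inside the heterozygous range. Ser-GCT, represented by 3 sequences that match a tRNA gene on chromosome 13 of GRCm38 (22050686 to 22050767), antisense to Gm48356, was at 37.7, 77.0 and 112 RPM in wild type and at 49.3, 58.7 and 52.8 RPM in heterozygotes (−0.49, −1.09 to 0.12). Wild-type replicate 1 was its lowest value. Without that library the difference was −0.82, with an edgeR adjusted p of 0.0418, and 1 family was called. Without wild-type replicate 3 it was −0.079, and not called.

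The remaining glycine and valine families were small. Gly-TCC was at 1875 ± 404 RPM in wild type, against 1855 ± 98.0 RPM in heterozygotes (n = 3), and Gly-CCC at 275 ± 40.3 and 331 ± 93.2 RPM. Val-TAC was at 341 ± 18.4 and 403 ± 68.0 RPM. Their log2 fold changes were −0.015, 0.27 and 0.24, none called. Of all 19 families the values farthest from 0 were in Ser-GCT (−0.49) and in the family that begins AGCAGAGT (0.45, −0.23 to 1.13), which held only 51.3 ± 14.3 RPM in wild type, against 68.7 ± 38.3 RPM in heterozygotes.

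**Figure D2:**
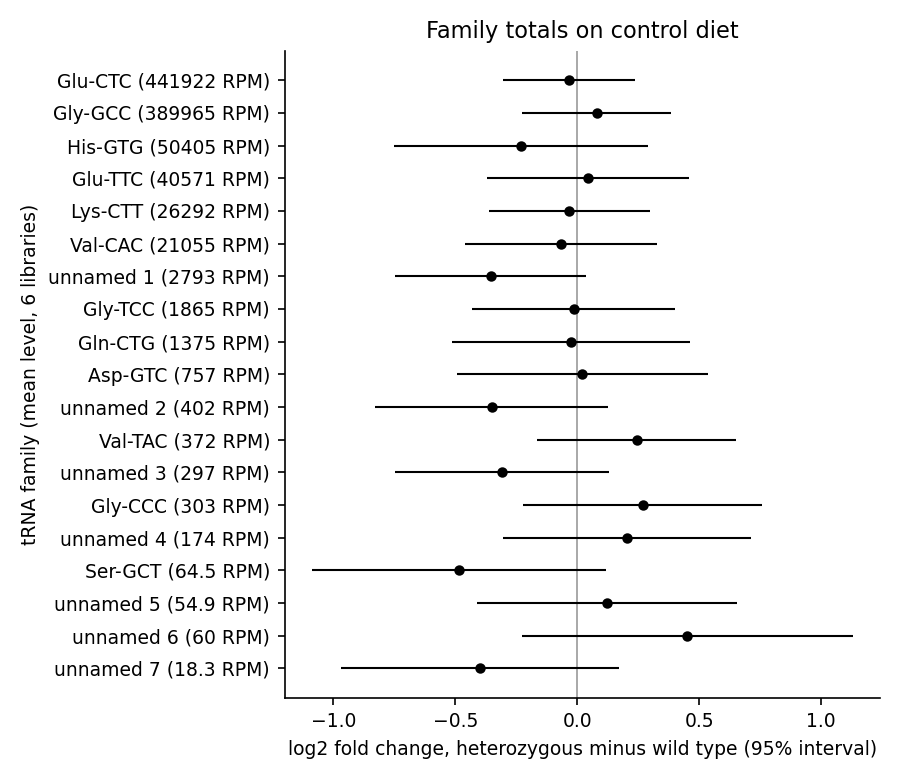
Log2 fold change of each tRNA family total, heterozygous minus wild type on control diet, with its 95% interval from edgeR, in order of abundance in wild type. Families with no anticodon reading are numbered as unnamed, the first being the family that begins GGCTCGTT. All 19 intervals include 0.

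No single sequence passed either. edgeR called 0 of 2971 sequences (0% called), with a lowest adjusted p of 0.965. DESeq2 and limma called 0, with 132 and 78 sequences at an unadjusted p under 0.05. In edgeR, at an unadjusted p under 0.05 there were 32 higher (1.08%) and 93 lower (3.13%) sequences. These 125 sequences became 39 when the 6 control-diet libraries were fitted alone, also with 0 called. All heterozygous libraries lay above all wild-type ones in 36 sequences (1.21%) and below them in 81 (2.73%). The 16 sequences with the lowest p, named by rule, had unadjusted p-values of 0.00242 to 0.00947. Of these, 7 were higher and 9 lower in heterozygotes, 13 had a complete 5′ end, 3 were trimmed (they lack the first bases of the tRNA), and all 16 carry a base that differs from the family reference, as do 89.8% of all sequences. Their mean levels were low to middling, 4.72 to 71.2 RPM, beside a median of 13.7 RPM over all sequences. They were chosen by these libraries, so their size here is a description.

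The Gly-GCC variant with T27G, its position counted from the 5′ end of the family's reference, was at 29.8, 28.3 and 40.1 RPM in wild type and at 67.2, 56.1 and 58.2 RPM in heterozygotes. The groups did not overlap, and the difference on the log2 scale was 0.89 (interval 0.36 to 1.41, SE 0.24, edgeR adjusted p 0.965). The double variant, with a further changed base, was at 6.36, 8.03 and 9.28 RPM in wild type and at 19.5, 11.7 and 13.2 RPM in heterozygotes (0.92, SE 0.27), again without overlap. The unchanged fragment of the same length was far more abundant. It was at 83273, 88299 and 119440 RPM in wild type and at 84151, 97284 and 170308 RPM in heterozygotes (0.27, −0.26 to 0.81), with overlap.

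All Gly-GCC sequences with T27G followed by the reference base were then collected, a group chosen after its values were seen and given with no test. It held 5 sequences of 28 to 30 nt, all with a positive log2 fold change (0.48 to 1.28). Of these, 3 lay above all wild-type libraries (beside 1.21% of all sequences), and the pair above, chosen by low p, is among the 3. The summed level of all 5 was 44.0, 43.1 and 61.3 RPM in wild type, against 107, 81.0 and 86.9 RPM in heterozygotes. Another 3 sequences end on the changed base itself. Their sum was 135, 258 and 199 RPM in wild type, against 158, 169 and 330 RPM in heterozygotes, and none of the 3 separated the groups.

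On low protein diet, whose 6 libraries enter the control-diet test only through the shared spread, the same variant was at 37.3, 37.9 and 26.1 RPM in wild type and at 76.2, 109 and 93.5 RPM in heterozygotes. There it differed by 1.46 (SE 0.25) and the double variant by 1.68 (SE 0.27), both called with an edgeR adjusted p of 0.0453. In that contrast 6 of 2971 sequences were called (0.202%). All 5 sequences of the group separated the genotypes on that diet, with log2 fold changes of 1.46 to 1.94. The share of all sequences that did so on that diet is not given here, so no excess can be read from the 5. In edgeR, 506 of 2971 sequences had an unadjusted p under 0.05 on that diet, against 125 on control diet. The heterozygous low-protein libraries were all deeper (4828916 to 6870039 reads) than the wild-type ones (2278880 to 2874170 reads), so depth and genotype cannot be told apart in them.

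Among the lysine fragments, 3 of the 16 sequences were of the TTT type. The fragment of 31 nt, which differs from the Lys-CTT reference by C7A and G28C, was at 37.4, 36.8 and 58.7 RPM in wild type and at 142, 77.6 and 74.6 RPM in heterozygotes (1.15, SE 0.32). Its versions of 30 nt and 28 nt were at 5.60, 6.34 and 7.62 RPM and at 8.40, 11.8 and 11.3 RPM in wild type. In heterozygotes they were at 17.7, 11.9 and 13.2 RPM and at 24.7, 19.4 and 15.01 RPM. None of the 3 overlapped between the genotypes. The Lys-CTT fragment of 31 nt, at 4502, 5594 and 4470 RPM in wild type, against 4865, 4196 and 4086 RPM in heterozygotes, had a log2 fold change of −0.15 (−0.55 to 0.26).

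Collected after their values were seen, the complete sequences of the Lys-CTT family with both TTT-type bases numbered 12. Together they were at 348, 417 and 653 RPM in wild type and at 849, 575 and 757 RPM in heterozygotes, with overlap. Of the 12, 11 had a positive log2 fold change, all but the longest, and the median was 0.45. The 3 that separated the genotypes, all higher (beside 1.21% of all sequences), were of 31 nt or less. They are the same 3 fragments that were named above by low p, so their share of the 12 can show neither an excess nor its absence. The versions of 33 nt and 34 nt that end in act and actT were at 90.4, 148 and 257 RPM and at 131, 139 and 174 RPM in wild type, and at 271, 205 and 284 RPM and 215, 146 and 223 RPM in heterozygotes, both overlapping. The longest of the 12, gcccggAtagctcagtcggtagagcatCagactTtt, ends in ttt, and its letters are known as the 5′ end of lysine tRNAs with the TTT anticodon. It was at 3.06, 7.19 and 10.9 RPM in wild type and at 1.43, 2.08 and 10.01 RPM in heterozygotes. Of the other 110 complete sequences of the family, 1 lay above and 2 lay below all wild-type libraries, and their median was −0.069. On low protein diet 0 of the 12 separated the genotypes and the median was 0.25. The interaction of genotype and diet for the 31 nt fragment was −1.05 (SE 0.45, edgeR adjusted p 0.476), so a difference between the diets was not shown.

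The other Gly-GCC sequences among the 16 went both ways. The variant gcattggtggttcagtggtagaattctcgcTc was at 2.04, 2.11 and 2.65 RPM in wild type and at 10.4, 7.93 and 3.18 RPM in heterozygotes (1.70, SE 0.46), the largest positive difference of the 16. A 28 nt variant with a base missing near its start and another added had 2.32 to 3.82 RPM in wild type, against 4.72 to 10.01 RPM in heterozygotes. Lower in heterozygotes were 4 variants of 30 or 31 nt. Of these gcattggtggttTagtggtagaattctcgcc was the most abundant, at 25.2, 36.4 and 20.2 RPM in wild type and at 17.7, 15.3 and 11.8 RPM in heterozygotes (−0.84, SE 0.26). The variant gcattggtggttcaAtggtagaattctcgT was at 12.7, 15.2 and 7.29 RPM in wild type and at 5.195, 4.15 and 6.37 RPM in heterozygotes (−1.19, SE 0.34). On low protein diet that last difference had the other sign (1.40, with an edgeR adjusted p of the interaction of 0.249). The most abundant of the 4 also had the other sign there (0.42), with all heterozygous libraries above wild type. Its levels there were 15.8, 13.2 and 16.5 RPM in wild type and 20.7, 19.1 and 21.03 RPM in heterozygotes. The sign also changed for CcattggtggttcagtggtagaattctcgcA (0.48), but not for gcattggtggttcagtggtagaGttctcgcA (−0.091).

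The lowest p of the table belonged to ggctcgttggtctaggggtatgattctT, at 9.67, 9.72 and 13.6 RPM in wild type and at 5.02, 5.29 and 5.46 RPM in heterozygotes (−1.07, SE 0.29). Of the 43 sequences of its family 95.3% had a negative log2 fold change, with a median of −0.41 beside −0.055 over all sequences, where 56.1% were negative. An unadjusted p under 0.05 was reached by 10 of the 43, all lower (beside 3.13% of all sequences), and 5 lay below all wild-type libraries (beside 2.73%). The median was −0.58 to −0.23 with each control-diet library left out in turn. These sequences overlap each other and come from the same tRNA, so they are not independent. The most abundant member, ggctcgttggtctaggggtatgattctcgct, was at 527, 667 and 686 RPM in wild type and at 708, 657 and 385 RPM in heterozygotes, with overlap. Of the family's reads, 19.1, 19.2 and 19.6% differed from its reference in the wild-type libraries, against 17.5, 17 and 17.8% in the heterozygous ones. This was the only share or length measure with all heterozygous libraries below wild type among 60 compared (exact permutation p 0.1, Benjamini-Hochberg adjusted p 1). On low protein diet it went the other way, at 19.7, 19.4 and 18.1% in wild type, against 20.1, 21.03 and 21.1% in heterozygotes, all above. A 34 nt sequence of the family that begins GGTAGCGT was at 18.6, 18.2 and 14.6 RPM in wild type and at 12.5, 7.74 and 5.003 RPM in heterozygotes (−0.97, SE 0.30).

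**Figure D3:**
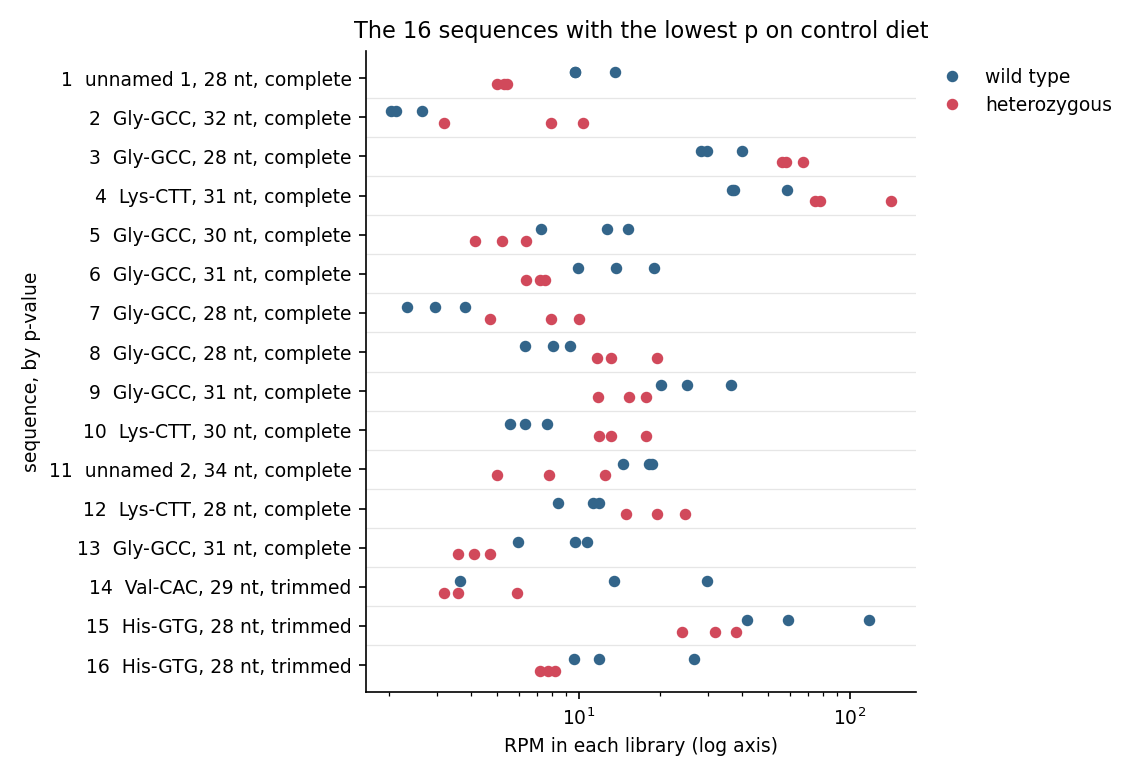
Level in RPM on a log axis of the 16 sequences with the lowest p, in order of p from the top, with 1 point per control-diet library and the genotypes in separate colours. The genotypes overlap only in the trimmed Val-CAC sequence. No sequence passed the adjusted threshold.

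The remaining 3 of the 16 were trimmed fragments, and in wild type their levels had the same order as the trimmed share of the library. Reads that lack the first bases of the tRNA made up 15.7, 8.81 and 4.36% of the table in wild-type replicates 1 to 3 and 9.55, 7.47 and 4.44% in heterozygous replicates 1 to 3. The groups overlapped (exact permutation p 0.7). The trimmed His-GTG fragment cgtgatcgtatagtggttagtactctgT was at 118, 59.2 and 41.8 RPM in wild type and at 38.0, 24.2 and 31.8 RPM in heterozygotes (−1.22, SE 0.40). Its version ending in A was at 26.7, 11.8 and 9.61 RPM and at 7.70, 7.17 and 8.19 RPM. The trimmed Val-CAC fragment ttccgtagtgtagtggttatcacgttcgT was at 29.8, 13.5 and 3.64 RPM in wild type and at 5.91, 3.59 and 3.18 RPM in heterozygotes, with overlap. Wild-type replicate 1 was the highest library in all 3.

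The 562 trimmed sequences had a median of −0.41 on the log2 scale, 76.2% of them negative, beside −0.0057 for the 2288 complete ones. At an unadjusted p under 0.05, 34 trimmed sequences were lower and 1 higher, beside 3.13% and 1.08% of all sequences. Below all wild-type libraries lay 9 of the 562, or 1.601%, beside 2.73% of all sequences. The median rests on wild-type replicate 1: without that library it was 0.12, and without wild-type replicate 3 it was −0.70. By family, the median was −1.12 for the 61 trimmed Glu-TTC sequences (−0.34 without wild-type replicate 1) and −0.92 for the 37 trimmed His-GTG ones (−0.16 without it). It was −0.47 in Glu-CTC, −0.49 in Val-CAC, −0.20 in Gly-GCC and −0.013 in Lys-CTT. With a control-diet library left out these 4 medians reached up to −0.051, 0.23, 0.44 and 0.53, so that 3 of them changed sign. Within Glu-TTC the trimmed share was 19.8, 13.1 and 2.83% in wild type, against 7.80, 5.63 and 4.84% in heterozygotes. Within Lys-CTT it was 19.8, 7.38 and 5.19% in wild type, against 14.8, 11.7 and 5.22% in heterozygotes. With libraries paired by replicate number, the trimmed share of all reads differed by −6.20, −1.34 and 0.080 percentage points. The exact sign-flip p was 0.5, where 3 pairs cannot go below 0.25. The part of RNA quality in these shares was not tested, nor what the replicate number stands for.

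The most abundant trimmed fragments of Glu-TTC, Gly-GCC and His-GTG overlapped between the genotypes. The Glu-TTC fragment cccacatggtctagcggttaggattcct was at 1426, 900 and 94.8 RPM in wild type and at 530, 392 and 215 RPM in heterozygotes (−1.09, −2.64 to 0.46). Wild-type replicate 3 was the lowest of the 6 libraries and wild-type replicate 1 the highest. The trimmed Gly-GCC fragment differed by −0.10 (−0.80 to 0.60) and the trimmed His-GTG fragment by −0.77 (−2.05 to 0.51).

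**Figure D4:**
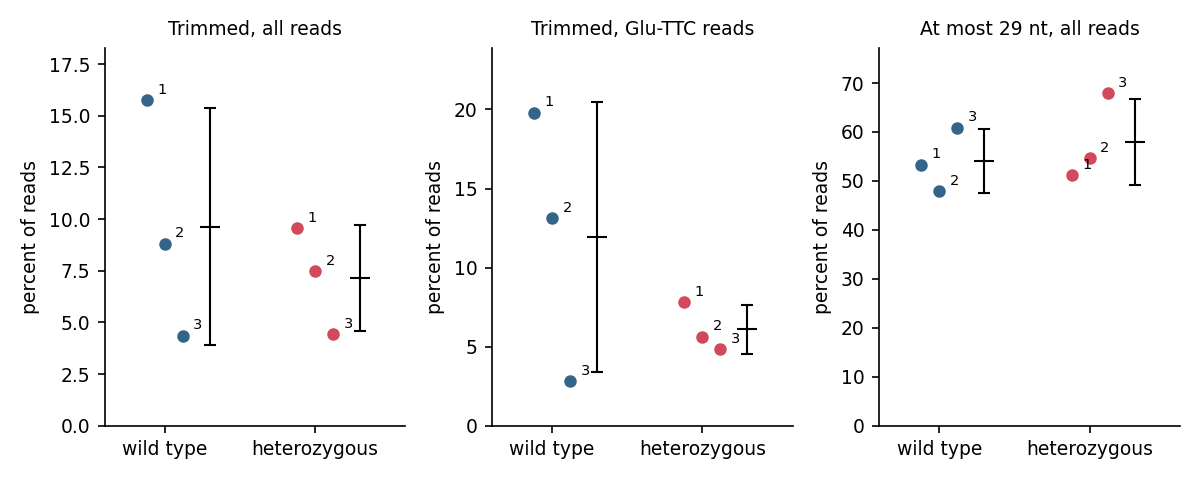
Percent of reads that are trimmed in the whole table and within Glu-TTC, and percent of reads of at most 29 nt, per control-diet library. Numbers are replicate numbers and bars the mean ± SD (n = 3). The genotypes overlap in all 3 panels, and wild-type replicate 1 has the highest trimmed shares, 15.7% and 19.8%.

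Libraries numbered 1 and those numbered 3 deviated together from their group means (correlations of 0.547 and 0.522), those numbered 2 hardly (0.143). The comparison was therefore repeated with the replicate number as a block on the 6 control-diet libraries. This pairing was taken from the same values that were then tested, so a call with the block is a description. In edgeR this called 1 of 2971 sequences (0.0337%). The His-GTG variant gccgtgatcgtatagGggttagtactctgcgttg was at 45.8, 68.9 and 4.31 RPM in wild-type replicates 1 to 3 and at 15.4, 11.1 and 1.82 RPM in heterozygous replicates 1 to 3. It was lower in the heterozygote of every number, while the groups overlapped. With the block the difference was −1.97 (SE 0.38, edgeR adjusted p 0.0202), and without it −1.98 (SE 0.74, edgeR adjusted p 0.965). With all 12 libraries and a block in each diet it was −1.98 (edgeR adjusted p 0.384), and 0 sequences were called. On low protein diet the difference had the other sign, 1.07, and was not called. The most abundant complete His-GTG fragment, gccgtgatcgtatagtggttagtactctgc, was at 10730, 6289 and 4248 RPM in wild type and at 10731, 7634 and 2977 RPM in heterozygotes (0.0051, −1.01 to 1.02).

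Histidine tRNAs are known to receive an extra guanine before their first base after transcription. Of the 105 His-GTG sequences that start before the first tRNA base, called extended, 17 lay below all wild-type libraries (16.2%, beside 2.73% of all sequences) and 0 above. Their median was −0.19 and moved to 0.097 without wild-type replicate 3. As a share of the family, extended reads were 24.8, 41.7 and 61.2% in wild type, against 34.6, 41.6 and 59.7% in heterozygotes, and overlapped. Mean length of His-GTG fragments was 30.99, 31.14 and 31.08 nt in wild type and 31.16, 31.22 and 31.21 nt in heterozygotes. It was the only measure of the 60 with all heterozygous libraries above wild type (exact permutation p 0.1, Benjamini-Hochberg adjusted p 1).

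By length, fragments of at most 29 nt made up 53.3, 47.9 and 60.9% of reads in wild type and 51.2, 54.6 and 67.9% in heterozygotes. Those of 30 to 31 nt made up 37.5, 42.2 and 28.5% in wild type, against 38.2, 35.4 and 24.03% in heterozygotes. Both overlapped (exact permutation p 0.6 each), and replicate 3 had the shortest fragments in both genotypes. Over single sequences the median log2 fold change was 0.045 for the 1227 sequences of at most 29 nt, −0.16 for the 1042 of 30 to 31 nt, −0.050 for the 463 of 32 to 33 nt and −0.076 for the 239 longer ones. In Gly-GCC the complete sequences of at most 29 nt had a median of 0.27, and 16.9% of these 444 were negative. This turned to −0.081 without heterozygous replicate 3. In Glu-TTC the 66 complete sequences of that length had a median of 0.20, with 10 above all wild-type libraries (15.2%, beside 1.21% of all sequences) and 0 below. It was 0.097 to 0.31 with each control-diet library left out. The sequences of a list share their reads' tRNA and ends, and these counts are descriptions.

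**Figure D5:**
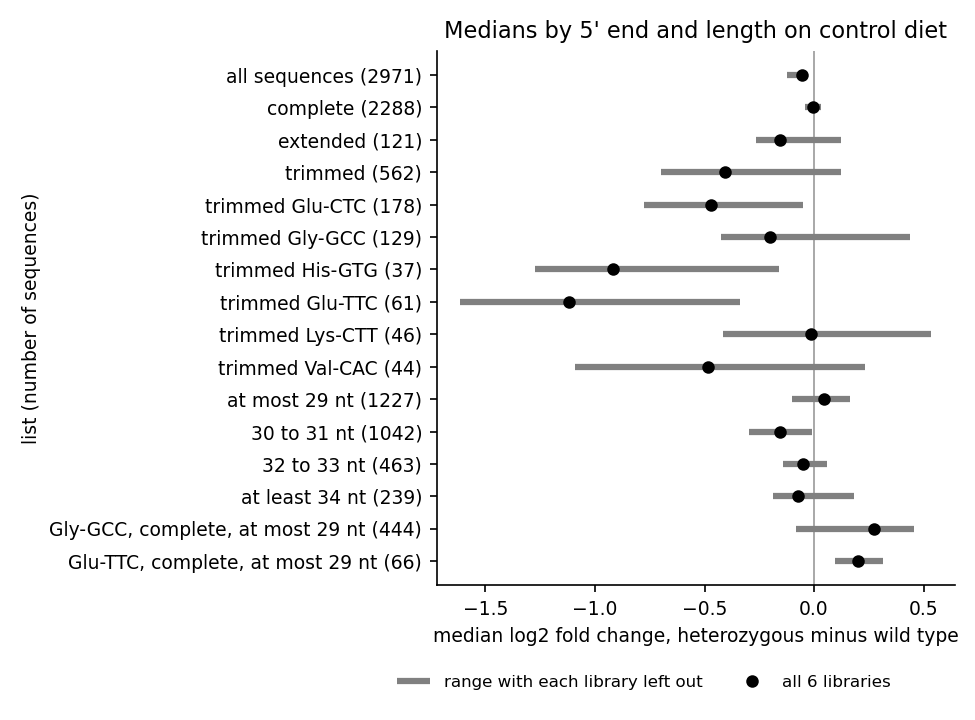
Median log2 fold change, heterozygous minus wild type on control diet, for sequences grouped by 5′ end, family and length, with the number of sequences. Bars span the medians obtained with each of the 6 control-diet libraries left out. The bar of the trimmed list reaches from −0.70 to 0.12.

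The genotype differences on the 2 diets come from separate libraries and were set side by side. Across the 2971 sequences, which are not independent, the log2 fold changes of both comparisons correlated at −0.020 (Pearson) and −0.0054 (Spearman), and 47.3% had the same sign. Of the 125 sequences with an unadjusted p under 0.05 on control diet, 59 had the same sign on low protein diet. Of the 16 named by lowest p, 12 had the same sign, 5 separated the genotypes in the same direction on both diets, and 2, the Gly-GCC pair with T27G, were called on low protein diet. The share of all sequences that separated the genotypes on both diets is not given here, so the 5 cannot be read as an excess. Of the 19 families 15 had the same sign on both diets. The family that begins GGCTCGTT was at −0.36 on control diet and at −0.86 on the other, and Ser-GCT at −0.49 and −0.92. On low protein diet both were called (edgeR adjusted p 0.0038 and 0.041), in the libraries where depth and genotype cannot be told apart. They were the only ones of the 19 families called there. The family that begins GCCCGGAT was at −0.31 and −0.56, with all heterozygous libraries below wild type on both diets. It was not called on low protein diet (edgeR adjusted p 0.092). The largest family with a change of sign was Val-CAC (−0.068 and 0.47).

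Of the 6 sequences called on low protein diet, 5 had the same sign on control diet. The trimmed Gly-TCC fragment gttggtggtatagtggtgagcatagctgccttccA was at 12.7, 10.6 and 11.6 RPM in wild type and at 9.14, 8.68 and 6.82 RPM in heterozygotes on control diet (−0.49, SE 0.29). The groups did not overlap. It was not called on control diet. The Gly-GCC variant gcattggtggttcagtggtagaattctcgG had the other sign, at 108, 144 and 71.9 RPM and at 107, 81.4 and 75.0 RPM (−0.30, SE 0.28). The interaction of genotype and diet called 0 of 2971 sequences (0%) in edgeR. Its lowest adjusted p was 0.249, and 292 sequences had an unadjusted p under 0.05. DESeq2 called 3. Without wild-type control-diet replicate 3 edgeR called 39. For families the interaction called 0, with 0 at an unadjusted p under 0.05, and a lowest adjusted p of 0.692.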

How the data were processed

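Small RNA libraries of sperm were made with a NEBNext kit and read at 36 bp paired end, per the labels' protocols. The deposited values are raw read counts per unique sequence and RPM, which the authors scaled to their library totals. The table holds 97.5 to 98.2% of those totals. Placement on mm10 is per the submitters' processing notes. How reads were aligned and counted was not given in the sources used here. A count of 0 allows up to 1.36 RPM (3 counts) in the shallowest library, for counting error only.

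Sequences were grouped into 19 families within an edit distance of 2 (edlib 1.3.9.post1). Of these, 11 were named by the anticodon most read in their longer fragments, among anticodons that an annotated tRNA gene carries. Fragments of Val-CAC read GAC (50.2 RPM) more than CAC (33.5 RPM). Ser-GCT was named by a RefSeq tRNA gene found through a GENCODE vM21 transcript, and 7 are called by their first bases. Members of a family can come from tRNAs with another anticodon. Complete, extended and trimmed mean a start at, before or after the first tRNA base.

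Counts were tested with edgeR 4.0.16 quasi-likelihood (R 4.3.3) over all 12 libraries, with 1 mean for each of the 4 groups, library sizes set to the authors' totals and a minimum mean of 1 RPM, which removed 0 sequences. Tests were two-sided, with a Benjamini-Hochberg threshold of 0.05. DESeq2 1.42.0, limma 3.58.1 (prior count 2), TMM scaling and left-out libraries were alternatives. Only the sequence fits without a block were tried on simulated counts with known changes. Those counts had less spread than these data and no replicate effect, so they do not show how the tests behave here. Shares used exact permutation tests (scipy 1.17.1). Intervals are 95%. Deviations of same-numbered control-diet libraries from their group means correlated at 0.547, 0.143 and 0.522. The numbers were taken as pairs in the block fits, a choice that rests on the tested values. Wild-type replicate 2 correlated more with heterozygous replicate 1 (0.195). Low-protein libraries of the same number correlated at −0.403, −0.074 and 0.062, so there the numbers mark no pairs.

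Named were the 16 sequences with the lowest p, the most abundant of 8 families, the most abundant trimmed of 4 families and any called with the block. Of these, 27 are reported and the others are not reported here. Others are marked by how they were chosen. The members and lists were chosen with earlier results of these data known.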

Additional observations from a re-analysis of the deposited data

How the results depend on the processing

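The count of called sequences was 0 under every alternative listed except 3. It was 1 with the replicate block on the 6 control-diet libraries, and 0 to 1 with a library left out. The calls without wild-type or heterozygous control-diet replicate 3 were a trimmed Glu-TTC and a complete Glu-CTC sequence. At an unadjusted p under 0.05 the 125 sequences became 466 and 247 there. With the 6 control-diet libraries alone they became 39. The block in each diet called 0 sequences, and neither block called a family. Called families were 0 to 1, and called interactions 0 to 39 with a library left out (39 without wild-type control-diet replicate 3) and 3 with DESeq2.

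The differences in share and length changed sign with the library left out. They ranged from −5.13 to 0.565 percentage points for trimmed reads, from −1.11 to 7.32 for reads of at most 29 nt, from −7.32 to 0.732 for 30 to 31 nt, from −0.595 to 0.431 for 32 to 33 nt, from −0.307 to 0.0666 for at least 34 nt and from −0.197 to 0.0450 nt for mean length. The median of the trimmed sequences, an alternative chosen after seeing the data, ranged from −0.70 to 0.12. The cause was not tested.

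Of the 27 named sequences 6 changed sign, none of them among the 16 with the lowest p. With a library left out, gcattggtggttcagtggtagaattctc ranged from −0.10 to 0.46, gccgtgatcgtatagtggttagtactctgc from −0.42 to 0.43, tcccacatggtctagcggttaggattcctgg from −0.34 to 0.43, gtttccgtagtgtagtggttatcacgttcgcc from −0.35 to 0.29, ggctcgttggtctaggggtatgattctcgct from −0.27 to 0.12 and cattggtggttcagtggtagaattctc from −0.28 to 0.33. With either replicate block gccgtgatcgtatagtggttagtactctgc was −0.077, with TMM −0.028, with DESeq2 −0.011 and with limma −0.078, and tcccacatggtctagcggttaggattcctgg was 0.0055 with DESeq2.

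Of 19 families 11 changed sign. With a library left out Asp-GTC ranged from −0.19 to 0.28, Gln-CTG from −0.17 to 0.29, Glu-CTC from −0.13 to 0.075, Glu-TTC from −0.14 to 0.24, Gly-GCC from −0.11 to 0.17, Gly-TCC from −0.12 to 0.18, Lys-CTT from −0.11 to 0.080, Val-CAC from −0.33 to 0.11, and those that begin AGCAGAGT, GGCTCCAT and GGGGTATA from −0.039 to 0.77, from −0.016 to 0.40 and from −0.11 to 0.33. With TMM and DESeq2 Gln-CTG was 0.084 and 0.094, Glu-CTC 0.036 and 0.057, Lys-CTT 0.061 and 0.078 and Gly-TCC 0.061 and 0.075. Gly-TCC was 0.0043 and 0.0042 with the replicate blocks, 0.0043 with limma and 0.013 with sequences of at least 10 RPM. All these families differ by at most 0.45 in the main test, and none was called.

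The depth limits sequences near 1.36 RPM, the level of 3 counts in the shallowest library, and 5 sequences had a group mean under it.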
